A study of Mus musculus with 2 samples.

Results

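The 45 genes described here are the genes of the cell division cycle: 17 S phase genes, which copy the DNA, 21 G2/M genes, which carry a cell into and through mitosis, 3 regulators of the step from G1 into S phase (Ccne1, Ccne2 and E2f1), the 3 D-type cyclins (Ccnd1, Ccnd2 and Ccnd3) and the cyclin-dependent kinase inhibitor Cdkn1a. They were chosen by symbol from 32285 genes of the count tables, and each of the 45 was found once and had counts in both libraries. They were measured by droplet single-cell RNA sequencing in cells of perigonadal fat (gWAT) left after the floating mature adipocytes had been removed, the stromovascular fraction. The cells came from male Cyp1a1 fate reporter mice (Cyp1a1Cre x R26LSL-eYFP) and were sorted as live eYFP+ cells. Cre driven by the Cyp1a1 promoter switches on eYFP for good, so a sorted cell, or a cell it descends from, had expressed Cyp1a1, which the aryl hydrocarbon receptor (AHR) switches on, and cells that had never done so were not measured. The mice had eaten low-fat (LFD, 10% fat) or high-fat food (HFD, 60% fat) over 12 weeks, with 1 library for each, and those of both groups were given FICZ, an AHR ligand, at a dose of 10 mg/kg when 5 days were left until collection. With 1 library per diet and no record of which mouse a cell came from, no test between diets was possible. Each interval below is a 95% interval that covers counting error only, and "higher" or "lower" compares these 2 libraries.

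A dividing cell passes from G1 through S phase, in which the MCM helicase (Mcm2 to Mcm7), the clamp PCNA and DNA polymerases copy the genome with nucleotides made by Rrm1, Rrm2, Tyms and Tk1, and on through G2 to mitosis, which is driven by Cdk1 with cyclins A and B and ended by Cdc20 and Ube2c. D-type cyclins pass growth signals to the cell cycle in G1, E2F factors and cyclin E open S phase, and Cdkn1a (p21), a target gene of p53, holds cells back. Adipose tissue is known to hold slowly dividing stromal and mesothelial cells, endothelial cells and resident immune cells, and the last divisions of the B lineage take place in plasmablasts, before mature plasma cells stop dividing.

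The timing of these genes is written in part in their promoters. Many G2/M genes are known to carry a cell cycle homology region (CHR, TTTGAA or TTCGAA), which is bound by the DREAM and MuvB complexes, together with CCAAT boxes, whereas many S phase genes carry E2F sites. These letters were searched on both strands in the RefSeq promoter windows (build GRCm38.p6, 250 bases before to 50 after the first listed start), which were given for 27025 genes in all. A window was found for 18 of 21 G2/M genes, of which 14 held a CHR, 15 a CCAAT box and 13 both, against 19.4%, 37.9% and 7.70% of all windows. Of the 15 S phase genes with a window, 9 held an E2F word (the letters TTCCCGC, the variant TTGGCGC, the variant TTCGCGC or the variant TTGCCGC) and 4 a CHR, whereas 4 of the 18 G2/M windows and 9.69% of all windows held an E2F word. The S phase genes also often held a CCAAT box (11 of 15). The windows of the G2/M genes and of the S phase genes with the highest levels in cycling cells among those that held the motif searched are shown to let both layouts be seen. A match of letters is a description and not a measured binding site. Ube2c, the ubiquitin-conjugating enzyme of the anaphase-promoting complex, has its window at chr2:164769679-164769978 (plus strand), and its 1 CHR, in capitals, begins at base -29 from the start site. Top2a, the topoisomerase that untangles sister DNA, has its window at chr11:99024140-99024439 (minus strand), with 4 CHR matches in capitals that begin at -179, -140, -120 and -23. Rrm2, the small subunit of ribonucleotide reductase, has its window at chr12:24708004-24708303 (plus strand), with 1 E2F word in capitals at -235. Rrm1, the large subunit, has its window at chr7:102441445-102441744 (plus strand), with 1 E2F word in capitals at -67.
Ube2c: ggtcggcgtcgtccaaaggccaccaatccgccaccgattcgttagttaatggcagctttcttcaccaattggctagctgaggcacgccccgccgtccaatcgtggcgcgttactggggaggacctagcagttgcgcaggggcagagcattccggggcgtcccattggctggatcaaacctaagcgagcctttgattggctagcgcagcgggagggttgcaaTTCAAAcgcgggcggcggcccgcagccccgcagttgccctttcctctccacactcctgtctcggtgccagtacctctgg
Top2a: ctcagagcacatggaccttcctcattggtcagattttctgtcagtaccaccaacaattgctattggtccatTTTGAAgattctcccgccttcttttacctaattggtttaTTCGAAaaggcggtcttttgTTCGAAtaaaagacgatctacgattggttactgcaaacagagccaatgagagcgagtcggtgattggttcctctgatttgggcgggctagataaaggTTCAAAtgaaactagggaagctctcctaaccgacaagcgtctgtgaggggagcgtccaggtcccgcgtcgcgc
Rrm2: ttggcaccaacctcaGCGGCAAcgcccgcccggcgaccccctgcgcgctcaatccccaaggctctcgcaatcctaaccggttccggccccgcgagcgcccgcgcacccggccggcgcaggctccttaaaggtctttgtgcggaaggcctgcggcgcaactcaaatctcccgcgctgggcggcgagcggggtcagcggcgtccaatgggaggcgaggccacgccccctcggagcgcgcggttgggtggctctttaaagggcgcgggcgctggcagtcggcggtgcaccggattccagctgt
Rrm1: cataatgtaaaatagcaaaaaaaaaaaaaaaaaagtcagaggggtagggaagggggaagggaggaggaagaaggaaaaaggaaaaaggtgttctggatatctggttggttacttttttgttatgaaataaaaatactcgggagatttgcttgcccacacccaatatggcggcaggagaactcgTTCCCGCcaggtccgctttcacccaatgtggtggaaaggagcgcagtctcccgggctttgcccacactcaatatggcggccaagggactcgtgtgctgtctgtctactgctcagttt

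After filters and removal of likely doublets, 9294 LFD and 7879 HFD cells were used, with a median of 10223 and 12722 unique molecular identifiers (UMIs) per cell. Cells were clustered without the 45 genes and other listed cell cycle genes, so that dividing cells could fall with their own type, and 11 of 14 clusters were named from marker lists. A marker was counted as high when at least 10% of a cluster's cells held it and its level was over 2 times the median of all clusters. In the clusters named for them, 13 of 13 endothelial, 12 of 12 plasma cell, 12 of 13 B cell and 12 of 13 macrophage markers were high, against 6 of 11 dendritic markers. The stromal class joined a mesothelial-like cluster (2698 LFD and 2233 HFD cells), in which 13 of 14 mesothelial markers were high, a stromal-like cluster (2991 and 1191) and an adipose progenitor-like cluster (221 and 579), so the mesothelial-like cluster was the larger part of the class in HFD and the stromal-like cluster in LFD. These 3 clusters shared markers: 12 of 13 stromal markers were also high in the mesothelial-like cluster, 10 of 14 mesothelial markers in the stromal-like cluster, and in the adipose progenitor-like cluster 13 of 13 stromal markers were high against 9 of 11 of its own list. T-like and ILC2-like cells formed the lymphoid class. A total of 22 barcodes passed the filters in both libraries, and leaving them out turned no ratio of cycling shares or of summed levels given below and moved none beyond its interval.

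A cell was called cycling when, after each cell was thinned at random to 2000 UMIs, it held a UMI of at least 3 of the 17 S phase genes or of at least 3 of the 21 G2/M genes. Cells below 2000 UMIs, 604 in LFD and 495 in HFD, were left out of these shares. Neutrophil-like cells, whose mature form does not divide, served as the reference for free RNA. None was cycling among the 137 LFD and 44 HFD neutrophil-like cells with at least 1000 UMIs (thinned to 1000, median depth before thinning 1367 and 1214 UMIs), which allowed shares of up to 2.19% and 6.82% (3 cells of the total). The calls depended on the cut: 13.99% of LFD and 13.91% of HFD cells held 2 or 3 genes of their better list, just outside or just inside it, while 40.1% and 39.2% held no gene of either list.

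The UMIs that thinning had set aside were counted separately, so that each gene could be read in UMIs that had not called the cell. In these held-out UMIs, 3173 cycling cells of all types were compared with 12901 other cells, in UMIs per 1000000 UMIs (CPM). All 38 genes used for the call were higher in cycling cells, a direction that the call itself sets, since the cells were chosen by these genes; the sizes are a description. The S phase genes were 3.34-fold (Mcm4) to 18.1-fold (Rrm2) higher, with a median of 4.66-fold, and the G2/M genes 5.10-fold (Ccnb2) to 45.6-fold (Nusap1) higher, with a median of 25.0-fold. The same holds for the phases, which were named by the list that called the cell. Among cells called on the S phase list only, Mcm6 was at 159 CPM and Plk1, the polo-like kinase of mitosis, at 9.599 CPM, whereas cells called on the G2/M list only had 49.6 CPM of Mcm6 and 87.9 CPM of Plk1. Of the 21 G2/M genes, 14, such as Ccnb1, Cdc20, Aurka and Cenpf, were highest in cells called on the G2/M list only, and the other 7, such as Top2a, Mki67 and Cdk1, in cells called on both lists. Of the S phase genes, 7 (among them Mcm2, Mcm3, Mcm6 and Cdc6) were highest in S only cells and 10 (among them Pcna, Rrm2, Tyms and Tk1) in cells called on both.

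Genes that the call had not used were read in the same UMIs. Cyclin E1 (Ccne1) was at 48.6 CPM in S only and 18.5 CPM in G2/M only cells, against 12.6 CPM in cells not cycling. Cyclin E2 (Ccne2) was at 20.6, 2.82 and 1.57 CPM, and E2f1 at 37.4, 11.1 and 7.12 CPM, in the same 3 classes. E2f8 and E2f7, the E2F factors that repress E2F targets late in S phase, were 14.7-fold and 8.03-fold higher in cycling cells. Of the D-type cyclins, Ccnd2 was 2.92-fold higher in cycling cells, Ccnd1 1.35-fold and Ccnd3 1.06-fold. Ccnd1 (49.6 CPM in S only and 21.3 CPM in G2/M only cells) and Ccnd3 (68.1 and 41.3 CPM) were higher in S only cells, and Ccnd2 (237 and 334 CPM) in G2/M only cells. Cdkn1a was at 45.3 CPM in cycling and 76.9 CPM in other cells, a ratio of 0.589, and the other inhibitors did not share 1 direction: Cdkn1c (p57) had a ratio of 0.434, Cdkn1b (p27) of 0.992, Cdkn2b of 1.07, Cdkn2c of 1.30, Cdkn2a of 1.86 and Cdkn2d of 3.76. Of the p53 target genes, Btg2, an antiproliferative gene, had the lowest ratio, 0.495. These ratios pooled all cell types, whose shares of cycling cells differed, so phase and cell type cannot be told apart in them.

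**Figure D1:**
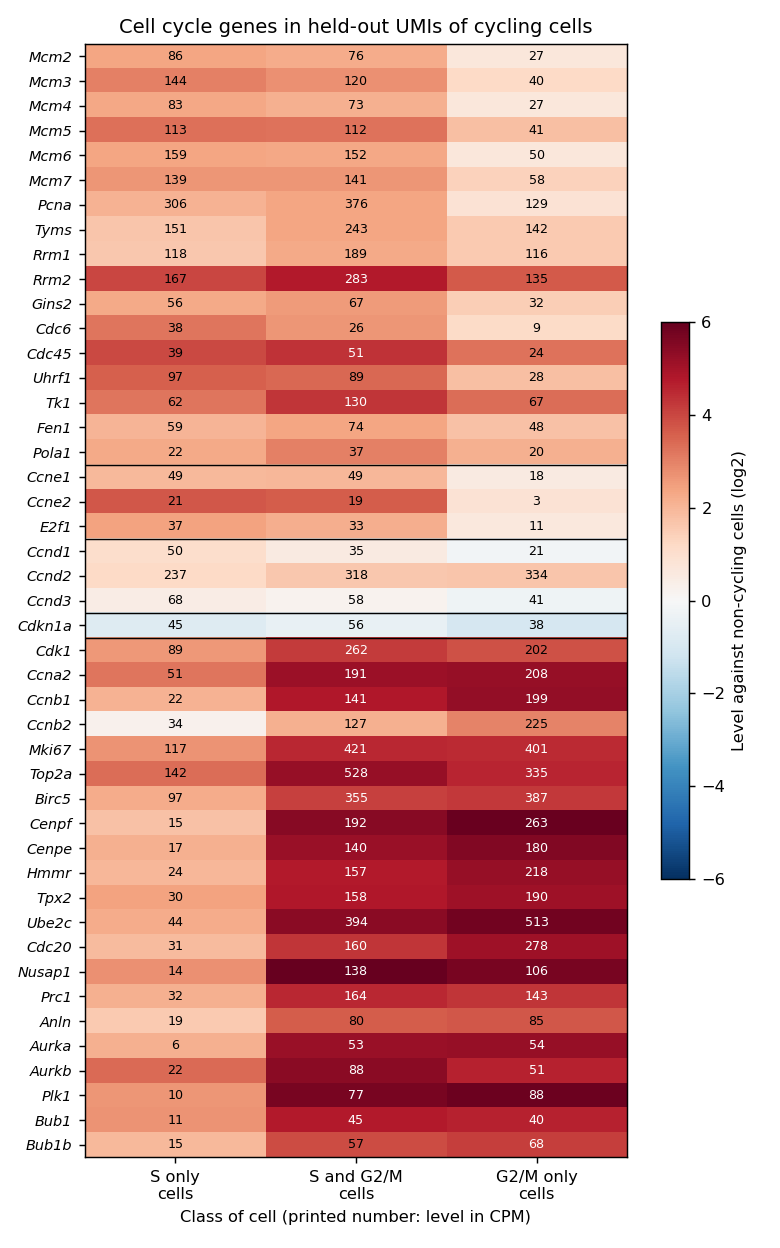
Levels of the 45 genes in UMIs that were not used to call a cell, for cells called on the S phase list only, on both lists or on the G2/M list only (columns), over all cell types. The colour gives the log2 ratio to cells not cycling and the printed number the level in CPM; the blocks from top to bottom are S phase genes, G1/S regulators, D-type cyclins, Cdkn1a and G2/M genes. Mcm genes are highest in the left columns, Plk1, Cdc20 and Cenpf in the right ones, and Cdkn1a is below its level in other cells in each column.

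Cycling cells made up a like share of all cells in both libraries, 19.7% (18.8 to 20.5%) in LFD and 19.8% (18.9 to 20.7%) in HFD, but the cell types lay far apart. All shares are of sorted eYFP+ cells. Plasma cell-like cells had the highest share, 51.3% (199 of 388) in LFD and 41.9% (570 of 1362) in HFD. B-like cells followed in LFD with 33.0% (363 of 1099), then T-like cells with 32.5% (25 of 77), ILC2-like cells with 27.8% (30 of 108), mesothelial-like cells with 27.5% (741 of 2696), endothelial-like cells with 22.8% (108 of 474) and dendritic-like cells with 22.4% (19 of 85). These middle shares could not all be set in order, because the interval of T-like cells ran from 22.2 to 44.1% and that of dendritic-like cells from 14.03 to 32.7%. Stromal-like cells had 6.57% (196 of 2981) and adipose progenitor-like cells 7.44% (16 of 215) in LFD, below mesothelial-like cells, and macrophage-like cells had the lowest share, 0.797% (4 of 502). The gap between mesothelial-like and stromal-like cells depended on where the clusters were cut: at resolution 0.8, which left 569 LFD and 543 HFD cells mesothelial-like, the LFD shares were 29.3% (167 of 569) and 15.1% (770 of 5108). In HFD, the order below plasma cell-like cells was T-like (26.2%, 21 of 80), mesothelial-like (24.0%, 534 of 2226), B-like (18.1%, 144 of 796), ILC2-like (13.8%, 13 of 94), dendritic-like (11.8%, 8 of 68), endothelial-like (9.93%, 43 of 433), stromal-like (7.03%, 83 of 1180), macrophage-like (5.52%, 27 of 489) and adipose progenitor-like cells (1.97%, 11 of 559). Without thinning, and with the shallow cells counted, the calls were made in 75.5 and 82.2% of mesothelial-like, 71.4 and 61.4% of plasma cell-like and 6.41 and 18.8% of macrophage-like cells in LFD and HFD. Of the droplets removed as likely doublets, 23.2% in LFD and 25.7% in HFD met the call.

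**Figure D2:**
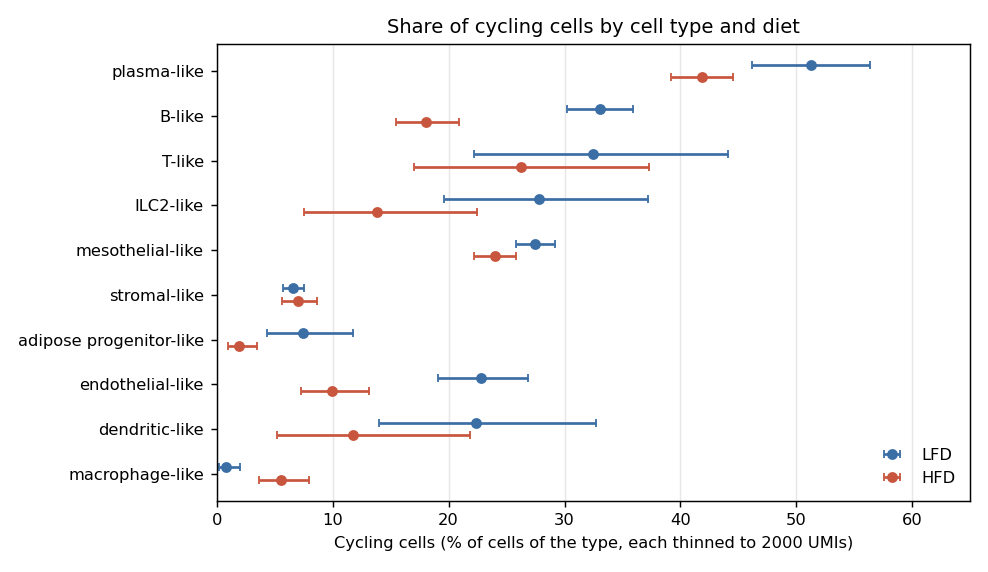
Share of cycling cells in each cell type (horizontal axis, percent of cells of the type with at least 2000 UMIs, each thinned to 2000), in the LFD (blue) and HFD (red) library, with exact 95% binomial intervals as bars. Plasma cell-like cells lie furthest right in both libraries; the red point lies left of the blue one in every type except stromal-like and macrophage-like cells.

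Plasma cell-like cells stood out by their share of dividing cells. In LFD, 94 of their 199 cycling cells were called on the G2/M list only, 61 on both lists and 44 on the S phase list only, and in HFD 290, 175 and 105 of 570. In their held-out UMIs, the cycling cells had less of the joining chain gene Jchain than the others (7719 against 13508 CPM in LFD and 11587 against 20788 CPM in HFD) and a lower share of immunoglobulin UMIs (24.2 against 34.2% in LFD and 28.9 against 41.3% in HFD). Mzb1, a chaperone of antibody secretion, was also lower in cycling cells (3772 against 4915 CPM in LFD and 3839 against 4700 CPM in HFD). So was Cd74, the invariant chain of antigen presentation (1482 against 2199 CPM in LFD and 1131 against 1494 CPM in HFD). The CPM counts immunoglobulin UMIs in its total, and with fewer of them in cycling cells the CPM of any other gene is raised there. No direction is therefore read for Irf4 (123 against 93.98 CPM in LFD and 140 against 107 CPM in HFD), H2-Aa (84.6 against 56.3 CPM and 33.7 against 26.5 CPM), Prdm1 (45.5 against 46.7 CPM and 56.9 against 50.7 CPM), Xbp1 (1882 against 1835 CPM and 2054 against 2032 CPM) and Sdc1 (116 against 119 CPM and 134 against 129 CPM). Pax5, which defines B cells, was near 0 (1.504 CPM in cycling and 0.599 CPM in other cells of LFD). When the immunoglobulin genes were left out before thinning, 56.9% of LFD and 47.5% of HFD plasma cell-like cells were cycling.

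In LFD, the summed levels of lymphoid, B lineage, endothelial-like and mesothelial-like cells lay above those of the other stromal clusters and of macrophage-like cells. The 17 S phase genes summed to 1373 CPM in T-like, 1273 CPM in B-like, 1231 CPM in ILC2-like and 1083 CPM in plasma cell-like cells of the LFD library, against 755 CPM in mesothelial-like, 330 CPM in stromal-like and 247 CPM in macrophage-like cells. The G2/M genes summed to 2298 CPM in T-like and 1819 CPM in plasma cell-like cells, and to 62.5 CPM (53.1 to 73.1) in macrophage-like cells of LFD, below the 106 CPM (69.9 to 154) of neutrophil-like cells. The order at the top depended on the weight of each cell. With each LFD cell counted equally, the S phase sums were 1008 CPM in plasma cell-like, 999.8 CPM in B-like, 854 CPM in ILC2-like and 779 CPM in T-like cells, and the G2/M sum was 1550 CPM in plasma cell-like and 1161 CPM in T-like cells, so T-like cells were no longer first. Neutrophil-like cells aside, all 21 G2/M genes were lowest in macrophage-like cells in LFD, and in HFD 17 of 21 were lowest in adipose progenitor-like cells. The types peaked in different genes. In the summed UMIs of LFD, in which deep cells weigh more, 13 of 21 G2/M genes were highest in T-like cells, among them Ccnb1 (112 CPM against 57.1 CPM in mesothelial-like cells), whereas Cdc20 (120 CPM) and Mki67 (269 CPM), the antigen of dividing cells, were highest in plasma cell-like cells, as was the S phase gene Rrm2 (223 CPM). The T-like cluster (126 LFD and 129 HFD cells) was not uniform: at resolution 0.8, 80 and 74 cells were T-like, and 46 and 55 cells formed an unnamed cluster with Ccl5, Nkg7, Klrd1 and Il2rb among its leading genes and 5 of 11 T cell markers high. Tyms, the thymidylate synthase, was highest in mesothelial-like cells (113 CPM), next to endothelial-like cells (110 CPM).

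**Figure D3:**
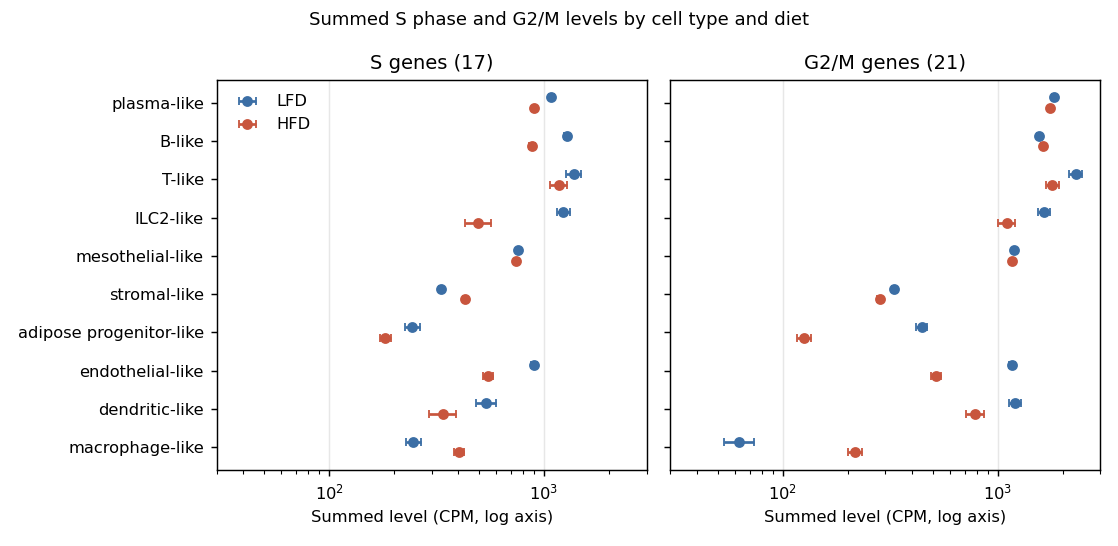
Summed level of the 17 S phase genes (left) and of the 21 G2/M genes (right) in each cell type, in CPM on a log axis, in the LFD (blue) and HFD (red) library, with exact 95% Poisson intervals as bars. The G2/M sum of macrophage-like cells in LFD lies far left at 62.5 CPM, and the red points of adipose progenitor-like and endothelial-like cells lie left of the blue ones in both panels.

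The diets were then compared within each type, gene by gene. A gene was counted as higher or lower in HFD when it had at least 50 UMIs over both libraries, a ratio of CPM of at least 1.5 in either direction and an interval of that ratio that left out 1, and the same rule applied to all genes gives the background share.

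Endothelial-like cells had lower levels of most of these genes in HFD. Their share of cycling cells was 22.8% (19.1 to 26.8%) in LFD and 9.93% (7.28 to 13.1%) in HFD (ratio 0.436, 0.299 to 0.626), and the G2/M sum was 1165 CPM in LFD and 515 CPM in HFD (ratio 0.442, 0.415 to 0.471). Of the 44 genes with enough UMIs, 31 were lower and 1 was higher in HFD, against 6.99% of all genes lower and 15.8% higher. All 21 G2/M genes had a ratio below 1 and 19 were called. Ccna2, cyclin A2, had 52.9 CPM in LFD against 14.9 CPM in HFD (ratio 0.282, 0.193 to 0.402). Birc5 (survivin), a member of the chromosomal passenger complex, was at 142 and 43.6 CPM (0.307). Ccnb1 was at 36.3 and 11.3 CPM (0.311), the checkpoint kinase Bub1 at 15.5 and 4.84 CPM (0.312) and the thymidine kinase Tk1 at 49.8 and 16.1 CPM (0.324). Cdc6, which loads the MCM helicase, did not share this: it was at 15.8 and 16.1 CPM. The median log2 ratio of all genes tested in this type was 0.14, and relative to it the G2/M ratio was 0.402. The deeper thinning to 5000 UMIs, which kept only the deepest cells, gave a ratio of shares of 0.684 (0.478 to 0.962). Endothelial-like cells of LFD had more UMIs (median 6168.5 against 3782 among the cells compared), 188 and 169 cells were too shallow to compare, and the part of depth in the difference was not tested. An unnamed cluster (12 LFD and 72 HFD cells), in which 13 of 13 endothelial and 9 of 9 mural markers were high, was not part of this comparison.

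Adipose progenitor-like cells had lower G2/M levels in HFD. In LFD 16 of 215 cells and in HFD 11 of 559 cells were cycling, 7.44% (4.31 to 11.8%) and 1.97% (0.986 to 3.49%), a ratio of 0.264 (0.111 to 0.607). All 21 G2/M genes had a ratio below 1, from 0.124 to 0.651, where the median log2 ratio of all genes tested was 0.10. Only 28 of the 45 genes passed the floor of 50 UMIs, and 19 of these were lower and 0 higher, against 5.01% of all genes lower and 12.6% higher; since a gene could pass the floor by its LFD level, that count is no support of its own. Prc1, which bundles the spindle midzone, had 19.1 CPM in LFD against 2.63 CPM in HFD (0.138, 0.0729 to 0.248, from 46 and 16 UMIs). Ube2c was at 25.7 and 4.11 CPM (0.160), the spindle protein Hmmr at 26.6 and 4.77 CPM (0.180), the kinetochore motor Cenpe at 27.0 and 5.93 CPM (0.220) and Ccna2 at 26.6 and 6.09 CPM (0.229). Summed, the G2/M genes of the LFD cells reached 442 CPM and those of the HFD cells 126 CPM (117 to 135). That HFD value lay within the interval of the 103 CPM (47.1 to 196) of neutrophil-like cells. Neutrophil-like cells were far shallower, with a median of 1203 UMIs against 10357 over both libraries. Whether the HFD sum is above free RNA therefore cannot be decided by this comparison. The S phase sum differed less, 245 CPM in LFD and 183 CPM in HFD (0.749, 0.677 to 0.829). The few cycling cells behind these values, 16 and 11, had a lower stromal marker level than the others (median 42603 against 69122 CPM in LFD and 53944 against 73778 CPM in HFD).

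Stromal-like cells, the larger stromal cluster in LFD, differed by phase. All 17 S phase genes had a ratio above 1, and 6 were called higher: Mcm4 (13.8 CPM in LFD and 21.4 CPM in HFD, ratio 1.55), Mcm3 (13.5 and 20.8 CPM, 1.55), Mcm2, Pola1, Uhrf1 and Rrm2. Of the 21 G2/M genes, 6 were lower, led by Plk1 (8.56 and 4.12 CPM, 0.482, 0.372 to 0.618), Aurka, the spindle kinase (4.65 and 2.24 CPM, 0.482), and Cdc20 (21.1 and 12.1 CPM, 0.573), followed by Ccnb1 (0.618) and Hmmr (0.640). In all, 9 of 45 genes were higher and 6 lower, against 7.04% and 6.61% of all genes. The phases of the cycling cells, which were called from UMIs of the same genes and so restate their levels, were as follows: 61 of 196 in LFD (31.1%, 24.7 to 38.1%) and 47 of 83 in HFD (56.6%, 45.3 to 67.5%) were S only. The share of cycling cells itself was 6.57 and 7.03% (ratio 1.07, 0.817 to 1.39). The calls depended on the settings. With doublets kept, 3 of the 9 genes stayed higher and 0 of the 6 lower, with median-ratio scaling 3 and 6, and with the mean of each cell's CPM 7 and 2. The G2/M ratio of 0.858 became 1.08 with clusters at resolution 0.8 and 1.07 with the cell cycle genes left in the clustering.

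Mesothelial-like cells, with 741 cycling cells in LFD and 534 in HFD, showed little difference between diets. The share was 27.5% (25.8 to 29.2%) in LFD and 24.0% (22.2 to 25.8%) in HFD (ratio 0.873, 0.779 to 0.977) that became 0.992 (0.859 to 1.14) when 5 genes of a list were asked for. Without thinning it turned to 1.09, at median depths of 14643.5 UMIs in LFD and 18175.5 UMIs in HFD. The S phase sum was 755 and 742 CPM and the G2/M sum 1190 and 1159 CPM. Of the 45 genes 1, Ccnd1, was higher and 0 lower, against 8.54% and 3.5% of all genes, and the median log2 ratio of all genes tested was 0.13. Over the whole stromal class the share was 16.2% in LFD and 15.8% in HFD (ratio 0.979, 0.884 to 1.08). That ratio depended on the settings: it was 1.24 (1.18 to 1.31) without thinning. Under a stricter filter of at least 1000 genes and under 5% mitochondrial UMIs it was 0.753 (0.624 to 0.908).

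B-like cells had fewer cycling cells in HFD and lower S phase genes. The share was 33.0% (30.3 to 35.9%) in LFD and 18.1% (15.5 to 20.9%) in HFD (ratio 0.548, 0.448 to 0.666), with 170 S only cells of 363 cycling cells in LFD and 45 of 144 in HFD. All 17 S phase genes were below 1, and the sum was 1273 CPM in LFD and 875 CPM in HFD (0.688, 0.660 to 0.716). Of these, 9 were called lower: the helicase genes Mcm7 (119 and 60.7 CPM, 0.510, 0.439 to 0.591), Mcm2 (79.0 and 40.3 CPM, 0.510), Mcm3 (125 and 71.2 CPM, 0.568), Mcm6 (110 and 63.8 CPM, 0.582) and Mcm5, its activator Cdc45 (23.7 and 13.7 CPM, 0.577) with Gins2, and Pola1 and Uhrf1. In all 9 of 43 genes were lower and 2 higher, against 4.01% and 7.09% of all genes. The G2/M genes did not go with the share: their sum was 1558 CPM in LFD and 1619 CPM in HFD (1.04, 1.01 to 1.07) and Cenpe was higher (44.2 and 69.3 CPM, 1.57). Cycling B-like cells of HFD were deeper (median 8010 UMIs, 4010 in cells not cycling) than those of LFD (6024 and 3607.5), and a deep cell weighs more in a sum. When each cell counted equally, the G2/M ratio was 0.862 and the S phase ratio 0.592, so the lower S phase level stood in both ways of counting and the direction of the G2/M level did not. Under the stricter filter of at least 1000 genes and under 5% mitochondrial UMIs, 112 B-like cells were left in LFD and 17 in HFD, and the ratio of shares was 1.43 (0.719 to 2.63). There the G2/M ratio was 2.03 (1.86 to 2.21) and the S phase ratio 0.870 (0.747 to 1.01).

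Plasma cell-like cells had a share of 51.3% (46.2 to 56.4%) in LFD and 41.9% (39.2 to 44.5%) in HFD (ratio 0.816, 0.693 to 0.964). Of 44 genes 2 were lower and 0 higher, against 5.89% and 2.78% of all genes: Aurka (26.4 and 17.01 CPM, 0.644) and Cdkn1a (7.83 and 5.15 CPM, 0.658). These calls are no more than the background share and did not hold in all settings: 0 of the 2 were kept with median-ratio scaling, and 1 with doublets kept or with the mean of each cell's CPM. All 17 S phase genes lay below 1, from 0.682 to 0.988. The G2/M sum was 1819 and 1750 CPM (0.962), and it turned to 1.06 without immunoglobulin genes in the denominator. Mki67 was among the 5 G2/M genes with a ratio above 1, with 269 CPM in LFD and 386 CPM in HFD (1.43).

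The lymphoid class had 29.7% cycling cells (55 of 185) in LFD and 19.5% (34 of 174) in HFD, a ratio of 0.657 (0.416 to 1.03) that did not leave out 1. Of 35 genes, 10 were lower and 0 higher, against 5.78% and 12.2% of all genes, led by Ccnb1 (81.5 and 35.0 CPM, 0.429, 0.271 to 0.662), Tyms (92.3 and 47.0 CPM, 0.510), Birc5 (205 and 107 CPM, 0.523), Rrm2 (120 and 62.7 CPM, 0.523) and Mcm5 (72.7 and 38.6 CPM, 0.531). Only these 35 of the 45 genes passed the floor, which a gene could do by its LFD level, so that count is no support of its own. In ILC2-like cells, the innate lymphoid cells that make type 2 cytokines, all 17 S phase genes were below 1 and their sum was 1231 CPM in LFD and 494 CPM in HFD (0.401, 0.342 to 0.469), and the share of cycling cells was 27.8% (19.6 to 37.2%) and 13.8% (7.57 to 22.5%), a ratio of 0.498 (0.238 to 0.984). Under the stricter filter that ratio was 1.43 (0.104 to 19.7), from 2 of 10 LFD and 2 of 7 HFD cells. In T-like cells the S phase sum was 1373 and 1169 CPM (0.851, 0.752 to 0.963) and the shares 32.5 and 26.2%. The difference between both types was not tested.

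Macrophage-like cells had more cells called cycling in HFD, with an interval of the ratio above 1. In all, 4 of 502 LFD cells, 0.797% (0.218 to 2.03%), and 27 of 489 HFD cells, 5.52% (3.67 to 7.93%), were cycling, a ratio of 6.93 (2.41 to 27.3). Both shares lay under the 2.19% and 6.82% that the absence of cycling neutrophil-like cells allowed at the lower depth of 1000 UMIs, so the shares alone do not show cells above free RNA. All 21 G2/M genes and all 17 S phase genes had a ratio above 1, where the median log2 ratio of all genes tested was 0.06, and the G2/M sum was 62.5 CPM (157 UMIs) in LFD and 216 CPM (737 UMIs) in HFD (3.46, 2.91 to 4.14). In neutrophil-like cells that sum was 106 CPM in LFD (27 UMIs) and 103 CPM (47.1 to 196) in HFD (9 UMIs). The CPM of macrophage-like cells was thus not above that of neutrophil-like cells in LFD. In HFD, at 216 CPM (201 to 233), it was above the interval of the neutrophil-like value. Neutrophil-like cells were shallower (median 1203 against 4995 UMIs over both libraries), so this comparison cannot set the level of free RNA in macrophage-like cells. Of the 21 genes that passed the floor, 14 were higher and 0 lower, against 5.98% and 3.57% of all genes. The other 24 were too low in both libraries to be counted. A gene could pass the floor by its HFD level, and a G2/M gene only so, and that count is therefore no support of its own. Top2a had 5.97 CPM in LFD against 30.3 CPM in HFD (5.07, 2.93 to 9.38), Birc5 at 5.18 and 18.2 CPM (3.52), Cdk1 at 4.38 and 15.0 CPM (3.42), Ccnd1 at 12.3 and 41.7 CPM (3.38) and Ube2c at 5.97 and 15.6 CPM (2.61). The size of the difference depended on the cells kept and the cut: with doublets kept the ratio of shares was 3.15 (1.56 to 6.90) and the G2/M ratio 2.00, with each cell typed by its own markers the G2/M ratio was 1.67, and the ratio of shares was 2.36 (1.52 to 3.76) when 2 genes of a list were enough. Of the cycling HFD cells, 14 were S only, 6 were called on both lists and 7 on the G2/M list only. Their median UMI number was 6846, against 6387 in HFD macrophage-like cells not cycling. The median level of the macrophage markers was 24476 CPM in them and 22148 CPM in the others, and the medians of the B cell, T cell, mesothelial and endothelial marker lists were 0 in both. The median of the stromal list was 603 CPM in the cycling and 564 CPM in the other cells, and that of the plasma cell list 342 and 311 CPM.

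**Figure D4:**
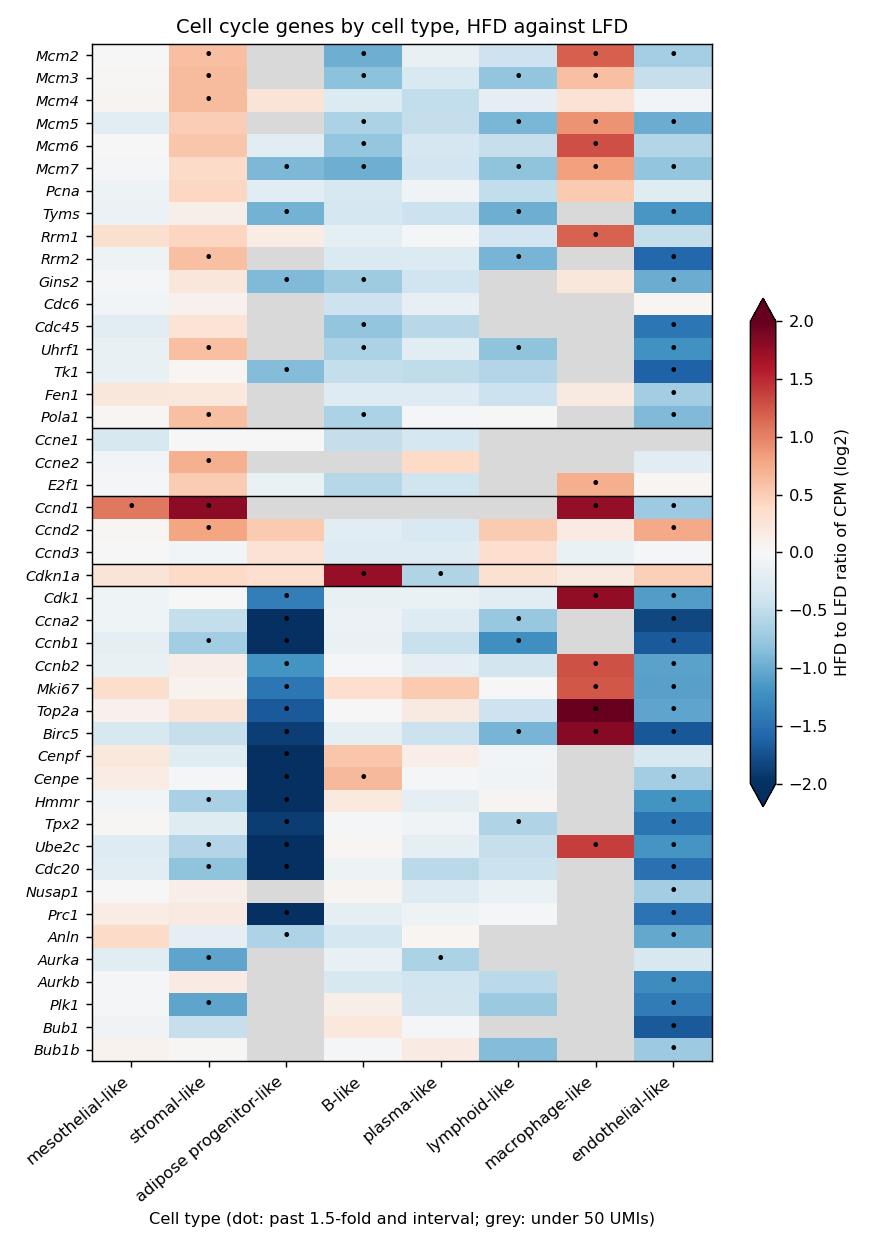
Log2 ratio of CPM, HFD to LFD, of each of the 45 genes (rows) in 8 cell types (columns); dots mark genes past 1.5-fold whose interval leaves out 1, and grey marks genes under 50 UMIs. The endothelial-like column is blue over the G2/M block, and the adipose progenitor-like column is blue in 15 of the 21 G2/M genes and grey in the other 6. The macrophage-like column is red or grey in the S phase and G2/M blocks, the 9 dotted blue genes of the B-like column all lie in the S phase block, and the stromal-like column is red in the S phase block with 6 dotted blue genes in the G2/M block.

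The D-type cyclins differed by cell type. Ccnd2 was highest in the B lineage, with 906 CPM in plasma cell-like and 691 CPM in B-like cells of LFD, followed by 301 CPM in ILC2-like, 292 CPM in T-like, 186 CPM in dendritic-like and 136 CPM in adipose progenitor-like cells, against 20.6 to 20.7 CPM in mesothelial-like and stromal-like cells. Ccnd1 was highest in endothelial-like cells (319 CPM in LFD and 193 CPM in HFD, 0.604, 0.542 to 0.672) and was near 0 in the B lineage, T-like and ILC2-like cells. Ccnd3 was less confined to a type and ran from 18.01 CPM in plasma cell-like to 134 CPM in T-like cells. Between diets, Ccnd1 was higher in HFD in mesothelial-like cells (20.8 and 43.2 CPM, 2.08, 1.91 to 2.26), stromal-like cells (4.94 and 17.1 CPM, 3.45, 2.86 to 4.18) and macrophage-like cells (12.3 and 41.7 CPM) and dendritic-like cells (54.5 and 94.5 CPM, 1.73, 1.12 to 2.71), and lower in endothelial-like cells. Ccnd2 was higher in HFD in endothelial-like cells (66.1 and 112 CPM, 1.69, 1.42 to 2.02), a call that was lost with the mean of each cell's CPM, in stromal-like cells (20.7 and 35.8 CPM, 1.73) and in ILC2-like cells (301 and 499 CPM, 1.66), and lower in dendritic-like cells (186 and 99.7 CPM, 0.537, 0.387 to 0.739). Cdkn1a was highest in endothelial-like cells (300 CPM in LFD and 418 CPM in HFD) and lowest in plasma cell-like cells (7.83 and 5.15 CPM). Macrophage-like cells (219 and 247 CPM), neutrophil-like cells (196 and 298 CPM, from 50 and 26 UMIs) and ILC2-like cells (187 and 275 CPM) came next, in an order that was not the same in both libraries. In B-like cells Cdkn1a was 3.33-fold higher in HFD (12.2 and 40.8 CPM, 2.49 to 4.51, from 64 and 170 UMIs). Across 11 named types, the level of Cdkn1a had a Pearson correlation of -0.45 in LFD and -0.48 in HFD with the sum of S phase and G2/M genes on the log2 scale; these types share a library and this is a description.

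**Figure D5:**
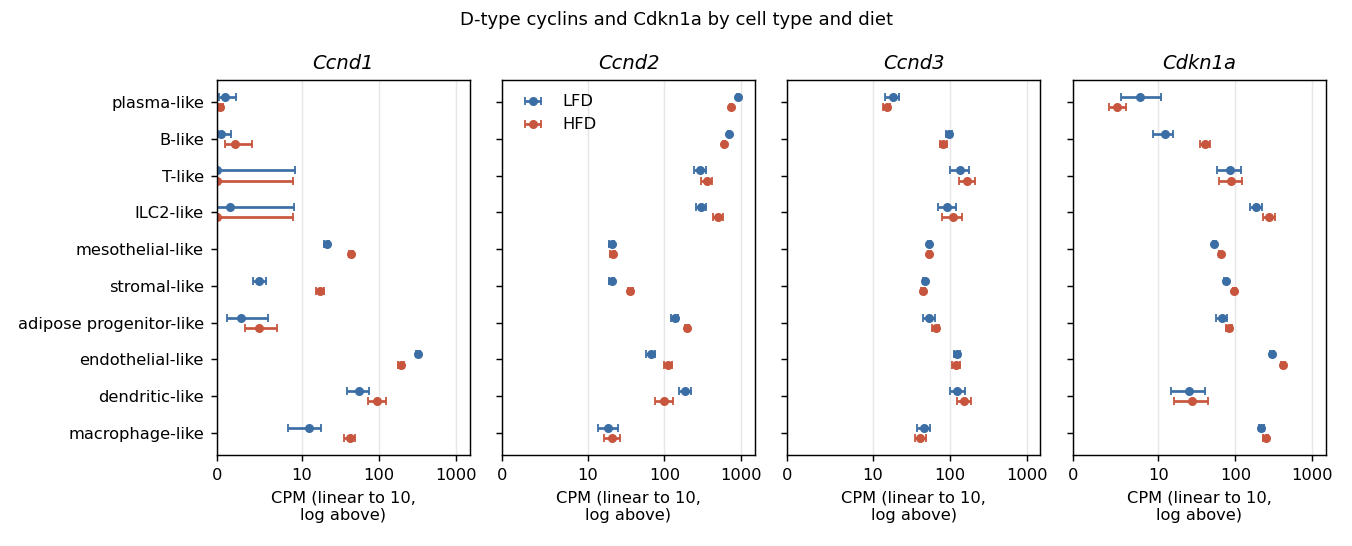
Level of Ccnd1, Ccnd2, Ccnd3 and Cdkn1a (panels) in each cell type in the LFD (blue) and HFD (red) library, in CPM on an axis that is linear up to 10 and logarithmic above, with exact 95% Poisson intervals as bars. Ccnd2 is highest in plasma cell-like and B-like cells, Ccnd1 in endothelial-like cells, and Cdkn1a lies lowest in plasma cell-like cells.

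Other genes of the pathway, from lists of 30 replication and 42 mitosis genes, were counted by the same rule. Where only part of a list passed the floor, a gene could do so by its level in the library where it was high. In endothelial-like cells (background 6.99% lower, 15.8% higher) 30 of 39 mitosis genes with enough UMIs were lower in HFD and 0 higher, led by Pbk (33.4 and 8.48 CPM, 0.254), Kif2c (0.279) and Spc25 (0.301), and 13 of 23 replication genes were lower, among them Pclaf (131 and 38.3 CPM, 0.292). In adipose progenitor-like cells (5.01% of all genes lower) 12 of 19 mitosis genes were lower, with Cdca3 first (31.5 and 8.72 CPM, 0.276); only 19 of 42 passed the floor, which a gene could do by its LFD level, so this count is no support either. In B-like cells (4.01% lower, 7.09% higher) 9 of 28 replication genes were lower, led by Dscc1 (16.1 and 6.71 CPM, 0.418), and 1 of 41 mitosis genes, Spc25, was lower and 1, Psrc1 (6.50 and 15.6 CPM, 2.40), higher. In stromal-like cells 4 of 42 mitosis genes were lower and 1 higher, and 2 of 30 replication genes, Orc6 and Hells, were higher, shares near the 6.61% of all genes that were lower and the 7.04% that were higher. In macrophage-like cells (5.98% higher) 6 of 12 mitosis genes were higher, led by Racgap1 (4.38 and 12.6 CPM, 2.88); only 12 of 42 passed the floor, which a gene could do by its HFD level, and nothing is read from this count. In mesothelial-like cells 0 of 42 mitosis and 0 of 30 replication genes were called in either direction. In the lymphoid class (5.78% lower, 12.2% higher) 7 of 16 replication genes were lower, led by Clspn (0.368), and of 22 mitosis genes 4 were lower and 1 higher; only 16 of 30 and 22 of 42 passed the floor, so these counts are no support either.

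Among 19 CDKs, inhibitors, pocket proteins and E2F factors, the inhibitors differed by type. Cdkn1c was lower in HFD in stromal-like cells (20.02 and 3.72 CPM, 0.186, 0.144 to 0.237) and mesothelial-like cells (6.95 and 2.29 CPM, 0.329), and higher in adipose progenitor-like cells (44.4 and 74.1 CPM, 1.67) and endothelial-like cells (32.7 and 68.2 CPM, 2.09). Cdkn1b was higher in HFD in B-like cells (58.7 and 97.3 CPM, 1.66), plasma cell-like cells (13.7 and 24.6 CPM, 1.79) and adipose progenitor-like cells (45.2 and 69.6 CPM, 1.54). Cdkn2a, which encodes p16 and p19Arf, was higher in B-like cells (5.35 and 16.5 CPM, 3.09), mesothelial-like cells (4.02 and 9.04 CPM, 2.25) and stromal-like cells (2.21). In B-like cells, where Cdkn1a was higher, 5 of 9 p53 target genes with enough UMIs were higher and 0 lower, against 7.09% and 4.01% of all genes, led by Phlda3 (3.44 and 9.83 CPM, 2.86), Trp53inp1 (2.23) and Btg2 (96.4 and 202 CPM, 2.10).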

How the data were processed

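Filtered count matrices of 2 libraries, deposited by the authors, held whole-number counts of unique molecular identifiers (UMIs) per gene and cell. Per the submitters' processing notes, reads were handled with bcl2fastq 2.17.1.14, STAR and Cell Ranger 4.0.0 on mm10, and Seurat 4.1.0 is also named. The matrices held 11281 LFD barcodes with 114311020 UMIs in all and 9631 HFD barcodes with 119498750. Cells with 500 to 40000 UMIs, at least 100 genes and under 12.5% mitochondrial UMIs were kept (10216 and 8537), and 922 and 658 likely doublets were removed (scanpy 1.11.5). Cells were clustered in Seurat 5.3.0 (R 4.3.3; 2000 variable genes, less listed cell cycle and other genes; 30 components; resolution 0.3). The marker lists were fixed, but the rule for naming clusters was settled after the clusters had been seen. Levels are UMIs summed over the cells of a type, per 1000000 UMIs. Intervals are exact: Poisson for levels, Clopper-Pearson for shares and conditional binomial for ratios (scipy 1.17.1). No test between diets was run, as each diet had 1 library. Up to 5 genes per direction and type were named, and up to 3 from each other list, by size of ratio; other genes named were chosen after their values were seen. The genes and lists were chosen with earlier results of these data known. The scripts were tested on simulated data.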

Additional observations from a re-analysis of the deposited data

Results flagged for a closer look

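The ratio of HFD to LFD shares of cycling cells had an interval that left out 1 in 7 cell types, and the types did not lie on the same side. It was 6.93 in macrophage-like cells, whose shares lay under the limits that the absence of cycling neutrophil-like cells allowed, and it was 0.264 in adipose progenitor-like, 0.436 in endothelial-like, 0.498 in ILC2-like, 0.548 in B-like, 0.816 in plasma cell-like and 0.873 in mesothelial-like cells. In stromal-like cells the summed level was higher in HFD for the S phase genes (ratio 1.30) and lower for the G2/M genes (0.858). The differences between types and between gene groups were not tested, because each diet had 1 library.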

How the results depend on the processing

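No paired analysis was possible because each diet had 1 library, and for the same reason no library could be left out. All values are HFD to LFD ratios unless said otherwise, and the causes of the shifts were not tested. Shares of cycling cells: without thinning, mesothelial-like 1.09 and stromal class 1.24; thinned to 5000 UMIs, macrophage-like 2.20 and endothelial-like 0.684; from 2 genes, macrophage-like 2.36; from 5 genes, stromal class 1.09. The stricter filter left few B-like and ILC2-like cells and gave shares of 1.43 in B-like, 1.43 in ILC2-like (2 of 10 and 2 of 7 cells), 0.261 in endothelial-like cells and 0.753 in the stromal class. Under it the S phase sums were 1.01 in mesothelial-like, 0.870 in B-like and 0.425 in endothelial-like cells, 0.784 in the lymphoid and 0.984 in the stromal class. Its G2/M sums were 1.07 in mesothelial-like, 2.03 in B-like, 3.29 in ILC2-like, 1.65 in macrophage-like and 0.372 in endothelial-like cells, 0.627 in the lymphoid and 0.921 in the stromal class.

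With doublets kept, the S phase sums were 1.46 in macrophage-like and 0.706 in endothelial-like cells, and the G2/M sums 2.00, 0.488 and, in the stromal class, 1.04. At resolution 0.8 the G2/M sums were 1.03 in mesothelial-like and 1.08 in stromal-like cells, and the lymphoid sums 0.513 (S phase) and 0.701 (G2/M). With cell cycle genes left in the clustering the stromal-like G2/M sum was 1.07, and with cells typed by their own markers the macrophage-like one was 1.67. Without immunoglobulin genes the plasma cell-like sums were 0.915 (S phase) and 1.06 (G2/M). Median-ratio scaling gave S phase sums of 0.888 in plasma cell-like cells, 0.555 in endothelial-like cells and 1.00 in the stromal class, and G2/M sums of 0.999 in B-like, 1.03 in plasma cell-like and 0.402 in endothelial-like cells and 0.948 in the stromal class. The mean of each cell's CPM gave S phase sums of 0.592 in B-like and 0.784 in plasma cell-like cells and 0.766 in the lymphoid class, and G2/M sums of 0.862 in B-like, 0.917 in plasma cell-like, 2.66 in macrophage-like and 0.386 in endothelial-like cells.

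The counts of genes called also moved. With the mean of each cell's CPM, 1 gene in B-like cells (2 before), 1 in the lymphoid class (0 before) and 0 in endothelial-like cells (1 before) were higher, and 6 in plasma cell-like cells (2 before) were lower. With median-ratio scaling 1 gene was higher and 0 lower in plasma cell-like cells, and with doublets kept 1 was lower there and 1 was higher in the lymphoid class. With a floor of 20 UMIs, 28 genes were higher in macrophage-like cells (14 before).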

Other observations

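Of the 3 clusters that were given no name, cluster 11 had 6 cycling cells of 15 deep enough in each library (its leading genes were haemoglobin genes such as Hbb-bs and Hba-a1 with Lcn8 and Defb48, its median depth 1177.5 and 999.5 UMIs, and its G2/M sum 957 and 1118 CPM, against 106 and 103 CPM in the likewise shallow neutrophil-like cells), cluster 12 had 3 of 10 in LFD and 3 of 70 in HFD, and cluster 13 had 0 of 19 and 0 of 9. In cluster 12, 13 of 13 endothelial and 9 of 9 mural markers were high. Of the p53 target genes with enough UMIs, 1 of 9 was higher and 1 lower in plasma cell-like cells (2.78% and 5.89% of all genes), and 2 of 5 were higher and 0 lower in the lymphoid class (12.2% and 5.78%). Trp53inp1 was higher in HFD in plasma cell-like cells (168.7 and 310.9 CPM, ratio 1.84), where Sesn2 was lower (16.1 and 9.72 CPM, 0.606), and in the lymphoid class (43.2 and 100.1 CPM, 2.32), and Btg2 was higher in endothelial-like cells (213 and 434 CPM, 2.04), where Phlda3 (0.523) and Bax (0.640) were lower, and in the lymphoid class (287 and 590 CPM, 2.06). Cdk6, a kinase partner of the D-type cyclins, was lower in HFD in B-like cells (63.5 CPM in LFD, ratio 0.555) and plasma cell-like cells (13.7 and 6.03 CPM, 0.440) and higher in macrophage-like cells (75.2 and 124 CPM, 1.65) and endothelial-like cells (8.16 and 19.4 CPM, 2.37).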
